A study of Mus musculus with 15 samples.

Results

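The unfolded protein and integrated stress response was examined through 10 genes in RNA-seq data of BMDMs, macrophages grown from mouse bone marrow. They were *Hspa5*, *Dnajb9*, *Herpud1*, *Ddit3*, *Atf4*, *Trib3*, *Chac1*, *Asns*, *Sesn2* and *Ppp1r15a*, chosen by symbol as known genes of this response, with earlier results of these data known, out of 20089 genes with a complete line of expression values. All 10 passed the filter on low values, a mean of at least 0.1 FPKM over the 15 samples, as did 11743 genes in all. The cells came from wild-type C57BL/6 mice, whose age the labels do not give, and every group received macrophage colony-stimulating factor (M-CSF), the growth factor that turns marrow cells into macrophages. The 5 groups held 3 samples each. Control cells had M-CSF alone. RANKL 4 h and RANKL 3 d cells also had receptor activator of nuclear factor κB ligand, the cytokine that drives macrophages to become osteoclasts. LPS 4 h and LPS 3 d cells had bacterial lipopolysaccharide in its place. The study set these stimuli side by side to tell responses to RANKL from those to LPS. Control cells that had stayed in culture for 3 d more without a stimulus were not analysed here, so in the 3 d groups the time under the stimulus and the time in culture cannot be told apart. The labels do not say which samples shared an animal or a culture, so p-values measure the spread between these samples only.

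When unfolded proteins build up in the endoplasmic reticulum (ER), sensor proteins in its membrane slow protein synthesis and switch on genes for chaperones and for the removal of misfolded proteins. The ER sensor PERK shares a step with kinases that sense lack of amino acids, lack of heme or double-stranded RNA: all phosphorylate the translation factor eIF2, which lowers protein synthesis but raises translation of the transcription factor ATF4, and this shared branch is called the integrated stress response. Macrophages meet both branches as they turn to secreting cytokines, and osteoclasts as they make large amounts of secreted enzymes.

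The promoters of the 10 genes are shown first where the 250 bases before the transcription start, taken from RefSeq (GRCm38.p6, 10 of 10 genes matched), hold a short motif known from this pathway. The windows lie at chr2:34771840-34772089 (plus strand) for *Hspa5*, chr8:94386179-94386428 (plus) for *Herpud1*, chr6:7693210-7693459 (minus) for *Asns*, chr2:119350992-119351241 (plus) for *Chac1* and chr7:45526269-45526518 (minus) for *Ppp1r15a*. Each is written 5′ to 3′ on the strand of the gene, with the motifs in capitals.
Hspa5: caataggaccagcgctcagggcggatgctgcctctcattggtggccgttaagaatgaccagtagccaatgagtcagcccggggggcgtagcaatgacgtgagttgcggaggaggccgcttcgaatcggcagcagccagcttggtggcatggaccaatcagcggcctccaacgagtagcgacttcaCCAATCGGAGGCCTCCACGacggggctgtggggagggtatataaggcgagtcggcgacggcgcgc
Herpud1: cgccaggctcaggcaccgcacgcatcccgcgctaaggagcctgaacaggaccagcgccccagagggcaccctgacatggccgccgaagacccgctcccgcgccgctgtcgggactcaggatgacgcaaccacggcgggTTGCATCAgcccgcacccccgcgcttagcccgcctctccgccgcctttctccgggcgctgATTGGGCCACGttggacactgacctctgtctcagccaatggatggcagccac
Asns: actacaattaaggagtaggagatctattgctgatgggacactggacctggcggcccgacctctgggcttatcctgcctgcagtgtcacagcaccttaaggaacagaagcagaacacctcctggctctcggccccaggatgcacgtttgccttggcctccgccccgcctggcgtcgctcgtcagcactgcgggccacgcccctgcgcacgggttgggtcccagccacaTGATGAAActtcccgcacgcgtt
Chac1: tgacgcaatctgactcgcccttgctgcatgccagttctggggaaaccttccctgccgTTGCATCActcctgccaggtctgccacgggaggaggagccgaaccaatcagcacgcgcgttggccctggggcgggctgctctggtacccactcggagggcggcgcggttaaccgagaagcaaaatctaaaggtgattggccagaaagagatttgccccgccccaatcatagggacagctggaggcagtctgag
Ppp1r15a: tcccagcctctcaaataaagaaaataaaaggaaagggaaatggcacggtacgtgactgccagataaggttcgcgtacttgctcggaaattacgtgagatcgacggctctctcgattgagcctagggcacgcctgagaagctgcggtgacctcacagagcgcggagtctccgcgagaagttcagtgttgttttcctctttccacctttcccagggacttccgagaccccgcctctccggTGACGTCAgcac

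Motifs were searched on both strands of the same 250 bases of 32851 promoters, and positions count from the RefSeq start. The gene spans given below come from GENCODE, where the start can differ. The windows of *Hspa5*, *Asns* and *Chac1* reach into those spans. The ER stress element ERSE, CCAAT and CCACG with 9 bases of any kind between them, was present in 0.113% of all promoters and, among the 10, in *Hspa5* only, at -65 to -47 from the start. The shorter element ERSE-II, ATTGG and CCACG with 1 base between them, was present in 0.0304% of promoters and among the 10 only in *Herpud1*, at -52 to -42. The composite TGATGNAA, to which pairs of C/EBP and ATF factors bind, was present in 3.45% of promoters and in 3 of the 10, at -23 to -16 in *Asns* and, on the opposite strand, at -193 to -186 in *Chac1* and -112 to -105 in *Herpud1*. The cAMP response element TGACGTCA was present in 1.55% of promoters and among the 10 only in *Ppp1r15a*, at -12 to -5. The core TGACGTGG was present in 0.563% of promoters and in 0 of the 10. These motifs did not overlap each other in the sequences shown, and a match describes letters, not a bound site.

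**Figure D1:**
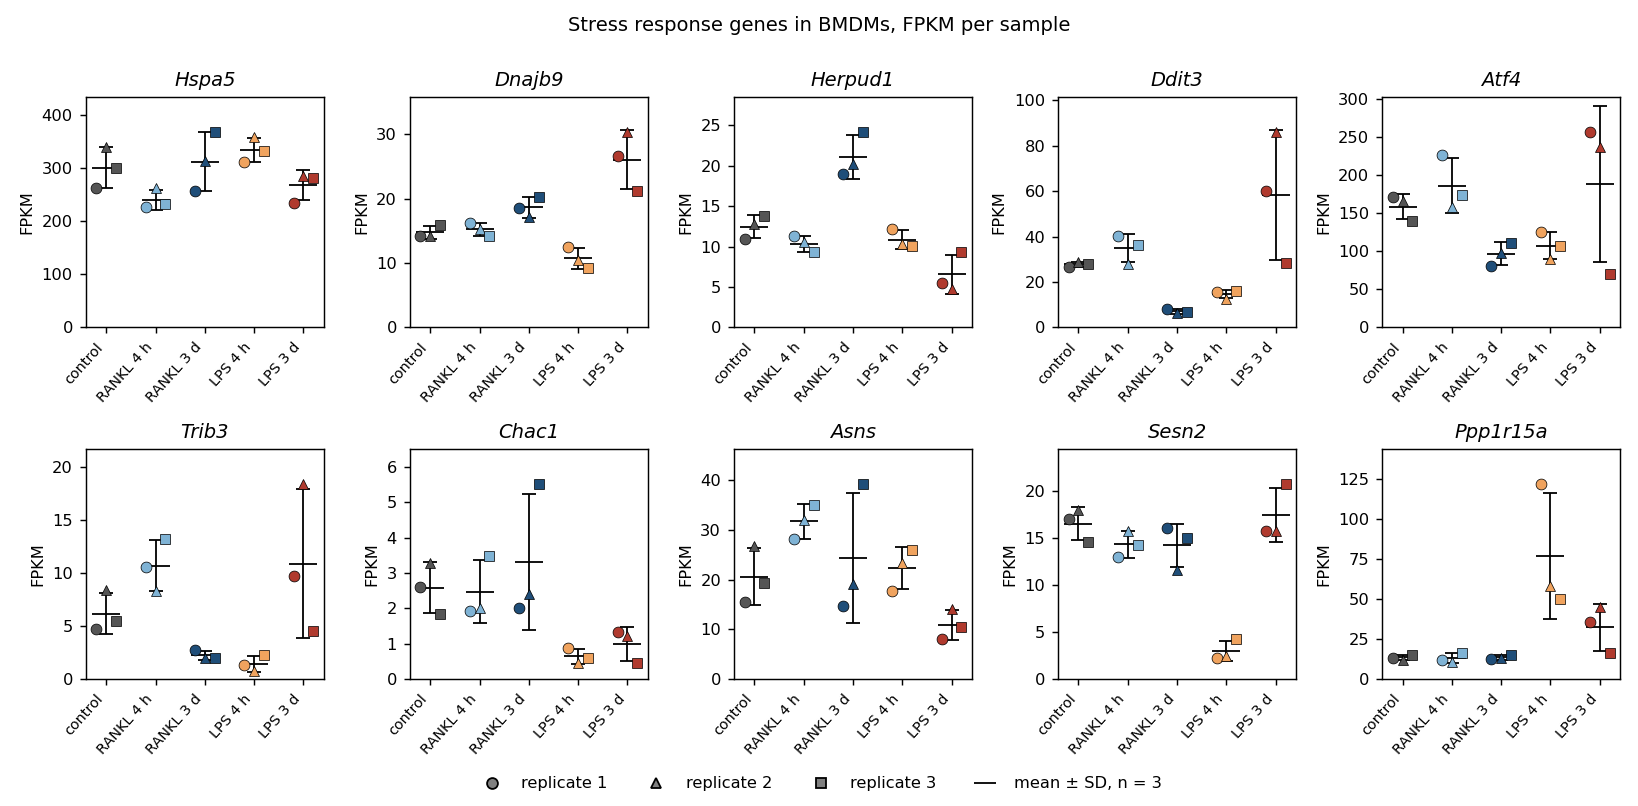
Expression of the 10 stress genes in every sample, in FPKM on linear axes that start at 0, by group; symbols mark the replicates and the bars the mean ± SD (n = 3). *Hspa5* differed least over the 15 samples (226 to 367 FPKM) and *Trib3* most in relative terms (0.727 to 18.4 FPKM), and LPS 3 d replicate 3 lay below the other LPS 3 d replicates for *Ddit3*, *Atf4*, *Trib3*, *Chac1* and *Ppp1r15a*.

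The libraries held 18306184 to 20330207 fragments on listed genes, recovered from the steps of the FPKM values. Of the 10 genes, *Hspa5* rested on 13203 to 21714 fragments per sample and *Chac1* on 14 to 175, and the other 8 lay between them. LPS 3 d replicate 3 stood apart from its group. For the median gene, the squared difference of its counts from those of the other LPS 3 d libraries was 37.6 to 54.8 times what repeat sampling gives. All other pairs within a group had 7.66 to 23.0 times. The summed macrophage markers of LPS 3 d replicate 3 were 17150 FPKM, against 5797 and 7629 in replicates 1 and 2. *Lyz2* (13800 against 3712 and 5276), *Adgre1* and *Itgam* were far higher there, *Cd68* (1282 against 1145 and 1159), *Csf1r*, *Mertk* and *Fcgr1* little. Its stromal cell markers summed to 554 FPKM against 123 and 128, and its neutrophil markers to 1816 FPKM against 186 and 152. LPS response genes summed to 15700 FPKM against 11230 and 13120, mostly through *Saa3* (13570 against 6740 and 8836). Replicate 3 was the lowest of the 3 for *Il6* (4.92 against 27.1 and 24.2), *Tnf*, *Il1b*, *Ptgs2*, *Il12b* and *Ccl5*, and between for *Nos2*, *Cxcl10* and *Acod1*. Results of LPS 3 d are therefore given with and without that library, whose part in them was not tested beyond this.

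Macrophage markers were present in all groups (7 of 7 genes, summed level 5357 to 17150 FPKM), but markers of neutrophils and their precursors were high too, with summed levels of 7913 to 24350 FPKM in control, 7513 to 21790 in RANKL 4 h and 6667 to 21330 in LPS 4 h. At 3 d they stood at 1852 to 7461 FPKM with RANKL, where 5 of 10 fell, and at 152 to 1816 with LPS, where 10 of 10 fell. Osteoclast markers rose in 9 of 10 genes with RANKL 3 d (1721 to 5474 FPKM, against 155 to 280 in control), as did 8 of 14 stromal cell markers (463 to 2089 FPKM, against 173 to 376), while 6 of 6 basophil and mast cell, 6 of 9 B lineage and 2 of 2 tested erythroid markers fell. With LPS 3 d, 5 of 6 basophil and mast cell, 7 of 9 B lineage and 1 of 2 tested erythroid markers fell as well. LPS response genes rose in 10 of 10 with LPS 4 h and 8 of 10 with LPS 3 d. T and NK cell markers summed to 2.05 to 19.1 FPKM in all groups. In such bulk samples, fewer cells of a type and less RNA per cell cannot be told apart, and the part of these cell markers in the stress gene results was not tested.

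Among the ER genes, *Hspa5* was the most abundant and the least variable of the 10, *Dnajb9* was highest in LPS 3 d and *Herpud1* highest in RANKL 3 d. *Hspa5* (chromosome 2, 34771970 to 34777547, GRCm38) encodes BiP, the main chaperone of the ER lumen and a standard readout of ER stress. Its control samples had 263, 339 and 299.5 FPKM, RANKL 4 h 226, 262 and 232, RANKL 3 d 255.8, 312 and 367, LPS 4 h 311, 357 and 332, and LPS 3 d 235, 285 and 281. Neighbouring groups overlapped all along the order of means, from 333 ± 23.2 FPKM in LPS 4 h (SD, n = 3 here and throughout) to 239.8 ± 19.04 in RANKL 4 h.

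*Dnajb9* (chromosome 12, 44205559 to 44210326) encodes ERdj4, a co-chaperone of BiP that is induced by the IRE1 branch. It stood at 14.2, 14.1 and 15.9 FPKM in control, 16.2, 15.3 and 14.2 in RANKL 4 h, 18.5, 17.1 and 20.3 in RANKL 3 d, 12.4, 10.5 and 9.17 in LPS 4 h, and 26.6, 30.3 and 21.2 in LPS 3 d. All LPS 3 d samples lay above, and all LPS 4 h samples below, every sample of the other groups. *Herpud1* (chromosome 8, 94386438 to 94395377) encodes an ER membrane protein of the degradation machinery for misfolded proteins. Its values were 10.9, 12.7 and 13.7 FPKM in control, 11.3, 10.5 and 9.32 in RANKL 4 h, 18.96, 20.2 and 24.1 in RANKL 3 d, 12.2, 10.3 and 10.1 in LPS 4 h, and 5.53, 4.77 and 9.34 in LPS 3 d. The 3 RANKL 3 d samples were the highest of the 15, and LPS 3 d overlapped RANKL 4 h only through its replicate 3.

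The transcription factors *Atf4* and *Ddit3* had the same order of group means, LPS 3 d, RANKL 4 h, control, LPS 4 h and RANKL 3 d, with more distance between groups for *Ddit3*. *Atf4* (chromosome 15, 80255184 to 80257541) encodes the central activator of the integrated stress response, which is regulated mainly in translation, so its mRNA reports only part of its activity. *Atf4* had 171, 166 and 139.5 FPKM in control, 227, 158 and 174 in RANKL 4 h, 80.9, 98.3 and 111 in RANKL 3 d, 125, 89.7 and 106 in LPS 4 h, and 256.3, 237.5 and 70.3 in LPS 3 d. LPS 3 d held both the highest samples and the lowest of all 15, and RANKL 3 d and LPS 4 h lay wholly below control. *Ddit3* (chromosome 10, 127290774 to 127296288) encodes CHOP, a factor linked to cell death under lasting stress. *Ddit3* had 26.5, 28.6 and 28.2 FPKM in control, 40.3, 28.1 and 36.3 in RANKL 4 h, 8.13, 6.21 and 6.82 in RANKL 3 d, 15.6, 12.5 and 16.1 in LPS 4 h, and 60.2, 85.95 and 28.6 in LPS 3 d. RANKL 3 d and LPS 4 h were each apart from all other groups, while LPS 3 d met the control range through its replicate 3. Of the 1713 exon bases of *Ddit3*, 68 lie over exons of *Mars* on the opposite strand, and it is not given whether the counting used strand.

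The genes downstream of ATF4 and CHOP did not move as a block: *Trib3* had the order of *Ddit3* with the 2 lowest groups exchanged, and *Chac1*, *Asns* and *Sesn2* each had another. *Trib3* (chromosome 2, 152337422 to 152344032) encodes a pseudokinase that both factors induce and that restrains them in turn. *Trib3* had 4.70, 8.37 and 5.44 FPKM in control, 10.6, 8.35 and 13.2 in RANKL 4 h, 2.69, 1.997 and 1.98 in RANKL 3 d, 1.36, 0.727 and 2.25 in LPS 4 h, and 9.73, 18.4 and 4.52 in LPS 3 d. RANKL 3 d and LPS 4 h overlapped each other and lay below the other 3 groups. *Chac1* (chromosome 2, 119351229 to 119354381) encodes an enzyme that breaks down glutathione. It was low throughout, with 2.61, 3.29 and 1.85 FPKM in control, 1.92, 2.02 and 3.49 in RANKL 4 h, 2.02, 2.39 and 5.52 in RANKL 3 d, 0.870, 0.446 and 0.601 in LPS 4 h, and 1.32, 1.21 and 0.447 in LPS 3 d. Every LPS sample lay below every control and RANKL sample.

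*Asns* (chromosome 6, 7675169 to 7693254) encodes asparagine synthetase and responds to lack of amino acids through ATF4. *Asns* had 15.5, 26.7 and 19.3 FPKM in control, 28.1, 31.9 and 35.1 in RANKL 4 h, 14.8, 19.2 and 39.3 in RANKL 3 d, 17.8, 23.4 and 25.9 in LPS 4 h, and 7.997, 14 and 10.4 in LPS 3 d. LPS 3 d lay below all other groups, and RANKL 3 d replicate 3 was far above the other RANKL 3 d samples. *Sesn2* (chromosome 4, 132492032 to 132510501) encodes sestrin 2, an inhibitor of mTORC1 signalling when leucine is short. *Sesn2* had 17.04, 18.1 and 14.6 FPKM in control, 12.95, 15.8 and 14.3 in RANKL 4 h, 16.1, 11.7 and 14.98 in RANKL 3 d, 2.201, 2.47 and 4.24 in LPS 4 h, and 15.8, 15.8 and 20.8 in LPS 3 d. LPS 4 h alone stood apart and the other 4 groups overlapped from neighbour to neighbour.

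*Ppp1r15a* (chromosome 7, 45522916 to 45526268) encodes GADD34, the inducible phosphatase subunit that returns eIF2 to its active state and so ends the response. It had 13.3, 11.8 and 15.2 FPKM in control, 11.9, 10.5 and 16.5 in RANKL 4 h, 12.3, 13.1 and 15.2 in RANKL 3 d, 122, 58.1 and 49.9 in LPS 4 h, and 35.7, 44.9 and 16.2 in LPS 3 d. All LPS 4 h samples were above all others, and the RANKL samples overlapped control at each time. Of the other genes with overlapping neighbours in the annotation, 12 exon bases of *Ppp1r15a* lie over *Tulp2* and 14 of *Dnajb9* over *Mir5627*, while *Herpud1* and *Sesn2* share 0 exon bases with theirs.

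RANKL for 4 h left the 10 genes without a change that passed the test. A gene is called changed at a fold above 1.5 or below 0.66 and a limma adjusted p under 0.05, Benjamini-Hochberg over the 11743 tested genes of log2(FPKM + 0.1), a scale that understates changes of low genes. By this rule 0 of the 10 changed, against 0.119% of tested genes (0.111% higher, 0.00852% lower). With the unadjusted p of the study in place of the adjusted it was again 0, against 2.56%. Without the fold limits an unadjusted p under 0.05 was reached by 1 gene, *Hspa5* (log2 difference -0.32, SE 0.15, limma adjusted p = 0.978), and limma voom on the recovered fragments called 0, against 0.119%. The groups did not overlap for 2 of the 10, *Hspa5* below and *Asns* above control (log2 difference 0.66, SE 0.31), where 10.8% of tested genes did not overlap. The interval for *Trib3* ran from -0.15 to 1.76 on the log2 scale, so a rise within that interval was not excluded.

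RANKL for 3 d lowered *Ddit3* and *Trib3* and raised *Herpud1* relative to control. *Ddit3* was 3.91-fold lower (log2 -1.97, SE 0.29, limma adjusted p = 0.000294) and *Trib3* 2.64-fold lower (-1.40, SE 0.44, adjusted p = 0.0288), while *Herpud1* was 1.68-fold higher (0.75, SE 0.20, adjusted p = 0.0134). This makes 3 of 10 called, against 24.2% of tested genes (16.6% higher, 7.54% lower), and groups without overlap in 5 of 10, against 49.1%. *Atf4* lay below control in all 3 samples at -0.72 (SE 0.36) without passing (adjusted p = 0.145). The main fit takes 1 spread per gene from all 5 groups, LPS 3 d included. In a limma fit of RANKL 3 d and control alone, *Atf4* was called lower (adjusted p = 0.0132). The *Herpud1* rise was lost when samples were centred on the median gene (0.53, adjusted p = 0.101), which left 2 of 10 lower and 0 higher, against 12.2% and 9.94% of tested genes. Leaving out RANKL 3 d replicate 3 left *Ddit3* as the only gene called, in a fit with fewer samples. The share of all tested genes in that fit is not given here.

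LPS for 4 h raised *Ppp1r15a* and lowered *Sesn2*, *Trib3*, *Chac1* and *Ddit3*. *Ppp1r15a* was 5.26-fold higher (log2 2.40, SE 0.35, limma adjusted p = 7.15e-05). *Sesn2* was 5.63-fold lower (-2.49, SE 0.21, adjusted p = 6.42e-07), *Trib3* 4.30-fold (-2.10, adjusted p = 0.00113), *Chac1* 3.64-fold (-1.86, SE 0.43, adjusted p = 0.002) and *Ddit3* 1.89-fold (-0.92, adjusted p = 0.0143). These are 5 of 10, against 48.1% of tested genes (8.43% higher, 39.7% lower), and 7 of 10 did not overlap with control, against 66.8%. In this comparison the median of all tested genes stood at -0.52, close to the median of the 10 (-0.52). When samples were centred on their median gene, *Ppp1r15a* (2.96), *Sesn2* (-1.93), *Trib3* (-1.54) and *Chac1* (-1.30) remained changed, *Ddit3* did not (-0.35, adjusted p = 0.339), and *Hspa5* was called higher (0.72, adjusted p = 0.00334). That made 2 higher and 3 lower, against 15.9% and 13.0%, while *Dnajb9* turned from -0.47 to 0.10 and *Herpud1* from -0.20 to 0.37 without a call. *Mars*, which overlaps *Ddit3*, stood at -0.87 (adjusted p = 0.000774) in the same comparison.

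**Figure D2:**
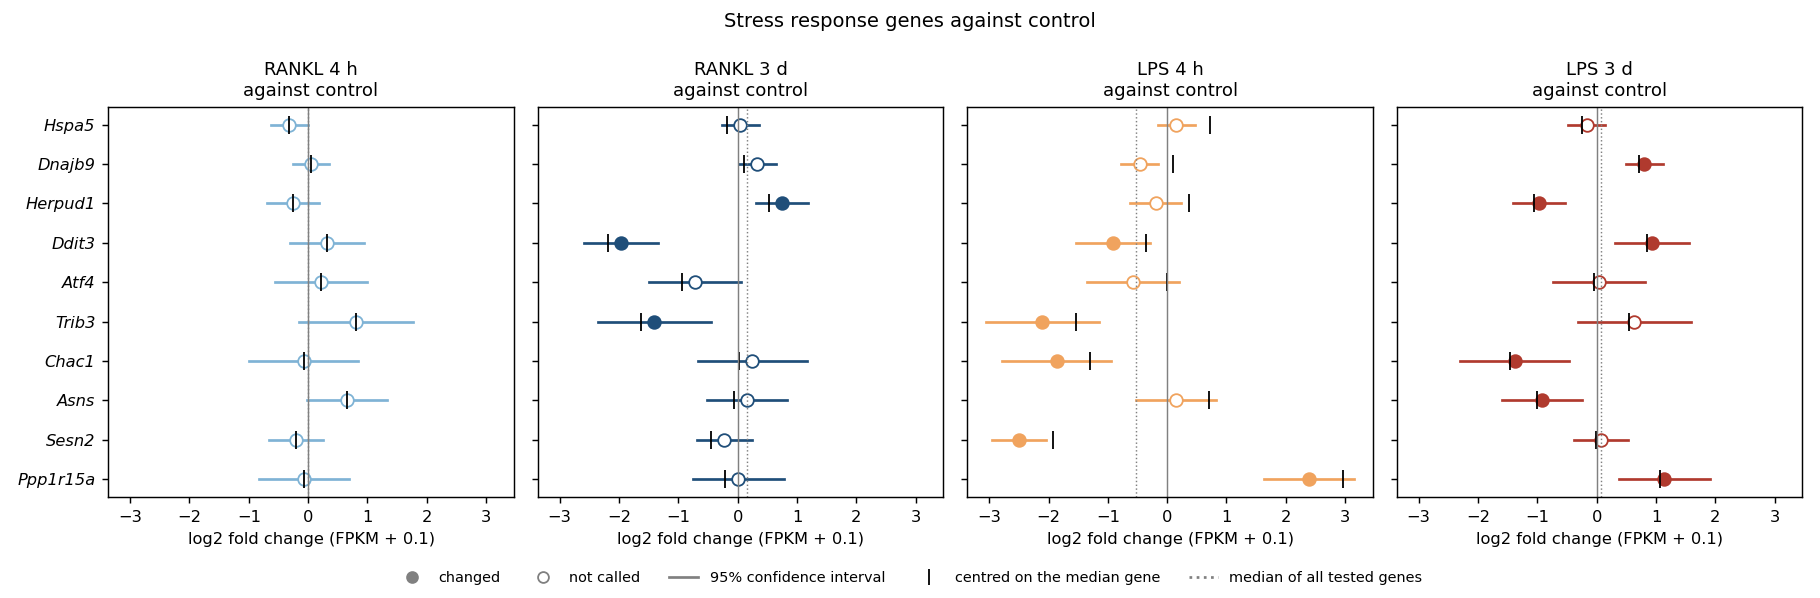
Log2 differences of the 10 genes from control, on log2(FPKM + 0.1), in a panel for each stimulus and time; filled points passed the test, lines are 95% confidence intervals, ticks give the value after centring on the median gene and the dotted line is the median of all tested genes. No point is filled for RANKL 4 h, and *Ddit3* is low at -1.97 in RANKL 3 d and at -0.92 in LPS 4 h but high at 0.93 in LPS 3 d.

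LPS for 3 d raised *Ppp1r15a*, *Ddit3* and *Dnajb9* and lowered *Chac1*, *Herpud1* and *Asns*. *Ppp1r15a* was 2.21-fold higher than control (log2 1.14, limma adjusted p = 0.0228), *Ddit3* 1.90-fold (0.93, adjusted p = 0.0233) and *Dnajb9* 1.74-fold (0.80, SE 0.14, adjusted p = 0.000842). *Chac1* was 2.60-fold lower (-1.38, adjusted p = 0.0224), *Herpud1* 1.96-fold (-0.97, adjusted p = 0.00245) and *Asns* 1.89-fold (-0.92, adjusted p = 0.0344). Together 6 of 10 were called, against 27.4% of tested genes (13.0% higher, 14.4% lower), and 5 of 10 did not overlap with control, against 44.1%. *Ddit3* was called although its samples overlapped with control, and its call was lost in a fit of these groups alone (adjusted p = 0.0916). Centring changed none of the 10 calls (3 higher and 3 lower, against 10.3% and 16.1%).

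Without LPS 3 d replicate 3 the count was again 6 of 10, but 5 of them higher and 1 lower, where the share of tested genes was 33.7% (18.0% higher, 15.7% lower). *Atf4* (0.64, limma adjusted p = 0.0135) and *Trib3* (1.15, adjusted p = 0.0344) were then called higher beside *Ddit3* (1.37), *Ppp1r15a* (1.58) and *Dnajb9* (0.94). *Herpud1* remained lower (-1.26), while *Chac1* (-0.94, adjusted p = 0.0783) and *Asns* (-0.91, adjusted p = 0.0589) lost their calls. Replicate 3 was the lowest LPS 3 d sample for 6 of the 10 genes, the highest for 2 and between for 2. The 10 genes spread more in LPS 3 d (median SD 0.63 on the log2 scale, against 0.27 for all tested genes) than in the other groups (0.17 to 0.26). Other libraries were also left out in turn, with fewer samples in each fit. The genes called were then 3 without control replicate 1, 2 without control replicate 2 and 3 without LPS 3 d replicate 1. Shares of all tested genes in these fits are not given here, so the counts do not set the 10 genes apart from other genes.

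**Figure D3:**
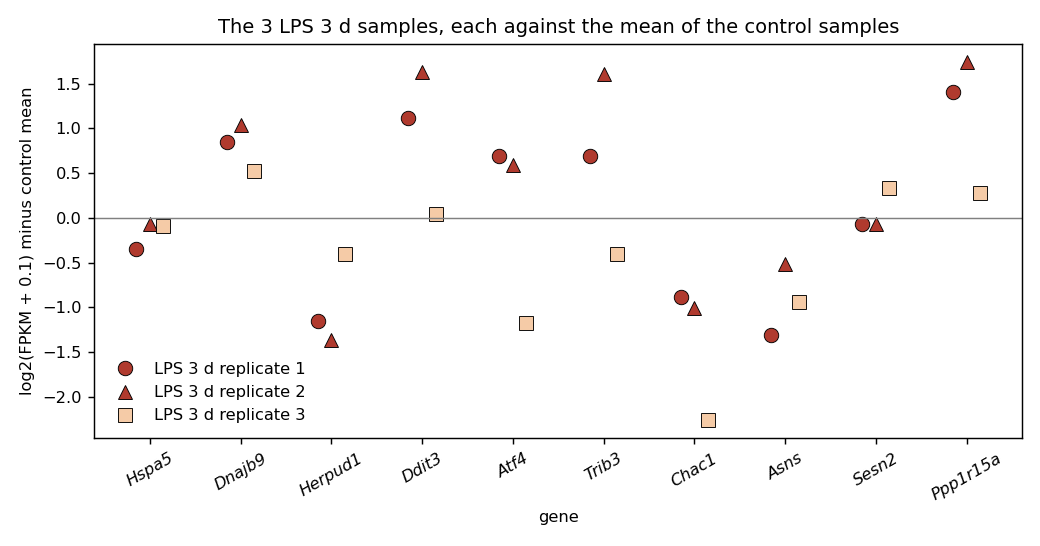
Log2 ratio of each LPS 3 d sample to the control mean for the 10 genes, with replicate 3 marked apart from replicates 1 and 2. Replicate 3 sits at -1.17 for *Atf4* where the others sit at 0.70 and 0.59, and at 0.04 for *Ddit3* where they sit at 1.12 and 1.63.

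RANKL and LPS differed directly in 5 of the 10 genes at 4 h (4 higher with RANKL, 1 lower), against 50.0% of tested genes (41.0% and 8.98%), and in 6 at 3 d (3 higher, 3 lower), against 36.1% (23.3% and 12.8%). The groups did not overlap in 9 of 10 at 4 h, against 68.2%, and in 7 of 10 at 3 d, against 51.5%. At 4 h, *Trib3* (7.52-fold, log2 2.91), *Sesn2* (4.88-fold, 2.29), *Chac1* (3.46-fold, 1.79) and *Ddit3* (2.35-fold, 1.23) were higher with RANKL, and *Ppp1r15a* was 5.54-fold lower (-2.47), with limma adjusted p from 1.26e-06 to 0.00259. The median of all tested genes was 0.53 here; after centring, *Ddit3* no longer passed (0.67, adjusted p = 0.0685), and *Hspa5* (-1.04) and *Herpud1* (-0.63) were called lower with RANKL, which made 3 higher and 3 lower, against 13.5% and 16.2%. *Mars*, the neighbour of *Ddit3*, was higher with RANKL too (0.91, adjusted p = 0.000558).

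At 3 d, *Ddit3* was 7.45-fold lower (-2.90), *Trib3* 4.10-fold (-2.04) and *Ppp1r15a* 2.19-fold (-1.13) with RANKL than with LPS, and *Herpud1* was 3.31-fold (1.73), *Chac1* 3.08-fold (1.63) and *Asns* 2.11-fold higher (1.08), with limma adjusted p from 4.06e-06 to 0.0186. Thus *Ddit3* and *Trib3* were higher with RANKL at 4 h and lower at 3 d, while *Chac1* was higher with RANKL and *Ppp1r15a* higher with LPS at each time. All 6 differences passed also without LPS 3 d replicate 3 (*Ddit3* -3.34, *Trib3* -2.55, *Ppp1r15a* -1.56, *Herpud1* 2.01, *Chac1* 1.19 and *Asns* 1.07), when *Atf4* (-1.36, adjusted p = 6.48e-05) and *Dnajb9* (-0.61, adjusted p = 0.00234) passed as well, which made 8 of 10, 3 higher and 5 lower, against 41.3% (24.3% and 17.0%). Centring likewise gave 3 higher and 5 lower, against 19.0% and 17.4%, with *Dnajb9* and *Atf4* added. *Asns* did not pass without RANKL 3 d replicate 3 or without LPS 3 d replicate 1 (adjusted p = 0.0548 to 0.0609), nor did *Ppp1r15a* without any of 3 libraries, RANKL 3 d replicate 1 and LPS 3 d replicates 1 and 2 (0.0558 to 0.0954).

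Over time, 7 of the 10 genes differed between LPS 3 d and LPS 4 h (4 higher at 3 d, 3 lower), against 58.1% of tested genes (44.2% and 13.9%), and 3 between RANKL 3 d and RANKL 4 h (1 higher, 2 lower), against 23.3% (16.4% and 6.83%). Groups did not overlap in 8 and in 5 of the 10, against 68.0% and 49.0%. From LPS 4 h to LPS 3 d, *Trib3* (6.67-fold, log2 2.74), *Sesn2* (5.90-fold, 2.56), *Ddit3* (3.60-fold, 1.85) and *Dnajb9* (2.41-fold, 1.27) were higher, and *Ppp1r15a* was 2.38-fold (-1.25), *Asns* 2.09-fold (-1.06) and *Herpud1* 1.71-fold lower (-0.78), with limma adjusted p from 3.90e-07 to 0.00822. Without LPS 3 d replicate 3 the same 7 passed, together with *Atf4* (1.22, adjusted p = 7.48e-05), 5 higher and 3 lower, against 60.6% (45.8% and 14.8%). The median of all tested genes was 0.52 in this comparison, and after centring all 7 passed with the same sign, while *Hspa5* was called lower (-0.97), which made 4 higher and 4 lower, against 18.8% and 27.5%. With RANKL, *Herpud1* was 2.02-fold higher at 3 d than at 4 h (1.01), and *Ddit3* was 4.87-fold (-2.28) and *Trib3* 4.62-fold lower (-2.21), with adjusted p from 0.000108 to 0.00263. Centring added *Atf4* to the falls (-1.16), which made 1 higher and 3 lower, against 9.72% and 11.5%. *Sesn2* differed by -0.02 between these times, with an interval of -0.47 to 0.44.

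**Figure D4:**
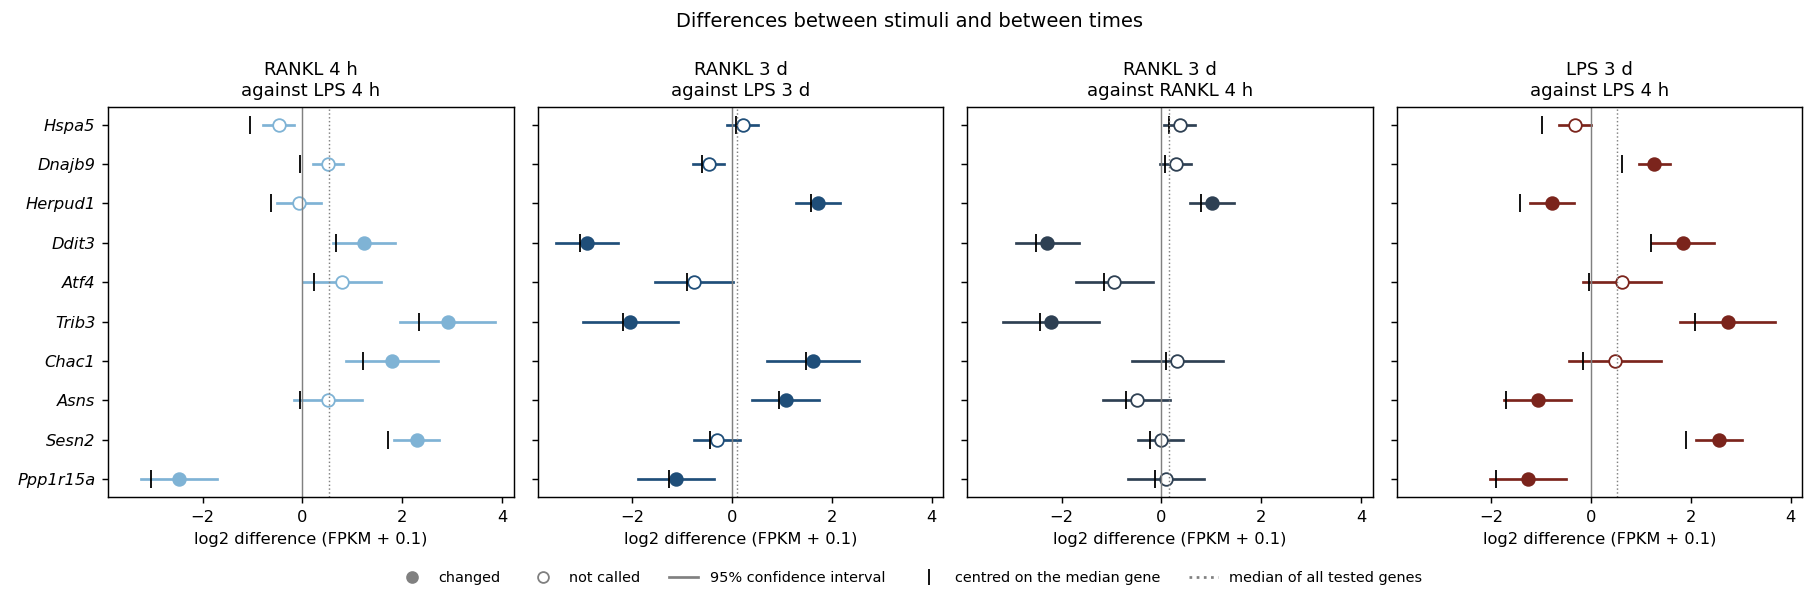
Log2 differences of the 10 genes between stimuli at 4 h and 3 d and between times within a stimulus, on log2(FPKM + 0.1); symbols, 95% confidence intervals, centred values and dotted medians are drawn as in the plot against control. *Ddit3* lies at 1.23 and *Trib3* at 2.91 between the stimuli at 4 h, and at -2.90 and -2.04 at 3 d.

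The other genes of the pathway were followed in 9 lists with 144 distinct genes in the table. With RANKL 4 h, 0 genes of any list were called. The counts of the lists are read against the shares of all tested genes given above, which were 16.6% higher and 7.54% lower in RANKL 3 d, 8.43% and 39.7% in LPS 4 h, and 13.0% and 14.4% in LPS 3 d (18.0% and 15.7% without its replicate 3). After centring on the median gene these shares were 9.94% and 12.2%, 15.9% and 13.0%, and 10.3% and 16.1%. Among the 10 genes listed as stress sensors and kinases, 3 rose and 0 fell with RANKL 3 d. With LPS 4 h 2 rose and 5 fell, and with LPS 3 d 1 rose and 1 fell. *Eif2ak3*, which encodes PERK, rose with RANKL 3 d (log2 0.95, limma adjusted p = 0.00449) and fell with LPS 4 h (-1.997, adjusted p = 4.05e-06). *Eif2ak2*, the kinase that senses double-stranded RNA, rose with LPS 4 h (0.77) and fell with LPS 3 d (-0.84), and *Eif2ak4*, the kinase that senses lack of amino acids, fell with LPS 4 h (-1.40). After centring, 2 sensors were higher and 2 lower in RANKL 3 d and also in LPS 4 h, and 0 were higher and 1 lower in LPS 3 d.

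Of 13 tested genes of eIF2 and its regulators, 2 rose and 3 fell with LPS 4 h (2 and 1 after centring), against 8.43% and 39.7% of tested genes. They included *Ppp1r15b*, the constitutive counterpart of *Ppp1r15a*, which rose from 28.1 ± 2.14 to 85.6 ± 8.04 FPKM (1.60, limma adjusted p = 1.5e-07). *Impact*, an inhibitor of GCN2 activation, fell (-1.90). With RANKL 3 d 1 rose and 1 fell (0 and 1 after centring), and with LPS 3 d 2 rose and 0 fell (the same counts after centring, 4 and 0 without its replicate 3). Of 9 tested stress transcription factors, 1 rose and 3 fell with RANKL 3 d, 4 rose and 1 fell with LPS 4 h, and 3 rose and 1 fell with LPS 3 d, and after centring these counts were 1 and 3, 5 and 1, and 2 and 1. *Atf3*, another factor under ATF4, fell with RANKL 3 d from 122 ± 11.7 to 37.5 ± 6.64 FPKM (-1.72, adjusted p = 0.000176), and *Nupr1* rose with LPS 4 h from 34.1 ± 9.53 to 309.9 ± 125 FPKM (3.13, adjusted p = 7.8e-07). *Atf3* was also lower in LPS 3 d (-0.77, adjusted p = 0.0198), a call lost without LPS 3 d replicate 3 (-0.46).

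The 20 ER chaperones and folding enzymes had a median of 0.07 with RANKL 3 d, against 0.16 for all tested genes, where 1 rose and 1 fell (1 and 4 after centring). With LPS 4 h 0 rose and 6 fell (median -0.48 against -0.52 for all), of which 1 was called lower after centring. With LPS 3 d 2 rose and 4 fell (2 and 5 after centring). *Ero1l*, the oxidase that supplies disulfide bonds, rose 1.58 with RANKL 3 d and 1.35 with LPS 3 d on the log2 scale, and *Pdia4*, a disulfide isomerase, fell with LPS 4 h (-1.21) and LPS 3 d (-0.81). Of 21 genes of ER-associated degradation and translocation, 2 rose and 1 fell with RANKL 3 d (0 rose and 3 fell after centring), 0 rose and 3 fell with LPS 4 h (4 rose and 0 fell after centring), and 2 rose and 2 fell with LPS 3 d (1 and 2 after centring, 4 and 2 without its replicate 3). *Sel1l*, a partner of the degradation ligase, rose with RANKL 3 d (0.71) beside *Herpud1*, but was not called after centring (0.49).

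The 17 tested ATF4 targets of amino acid synthesis and transport had the most calls of the 9 lists with LPS 3 d, where 3 rose and 8 fell (median -0.83 against 0.08 for all tested genes), against 13.0% and 14.4% of tested genes. The counts were 3 and 11 after centring, and again 3 and 8 without replicate 3, against 18.0% and 15.7%. *Phgdh* and *Psat1*, enzymes of serine synthesis, fell by 2.88 and by 1.75 on the log2 scale, while *Slc7a11*, the cystine transporter, rose from 2.32 ± 0.65 to 25.1 ± 10.2 FPKM (3.31, limma adjusted p = 1.34e-05). With RANKL 3 d 5 rose and 3 fell (median 0.51 against 0.16; 4 and 3 after centring), and *Slc7a11* was among those that fell (-1.70). With LPS 4 h 3 rose and 3 fell, or 6 and 1 after centring, and *Slc7a11* reached 64.4 ± 18.1 FPKM (4.73, adjusted p = 9.68e-08). Set directly against LPS 3 d, 13 of 17 were higher and 2 lower in RANKL 3 d (12 and 2 without LPS 3 d replicate 3), where 23.3% of tested genes were higher and 12.8% lower. The 17 cytosolic aminoacyl-tRNA synthetases, among them the ATF4 targets *Aars* and *Sars*, gave 2 higher and 1 lower in RANKL 3 d (0 and 1 after centring), 0 and 4 in LPS 4 h (2 and 0 after centring), and 0 and 0 in LPS 3 d.

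Of 20 other stress-induced genes, 7 rose and 4 fell with RANKL 3 d, 6 and 3 with LPS 4 h, and 4 and 3 with LPS 3 d. After centring these counts were 7 and 4, 8 and 1, and 4 and 3. *Gdf15*, a secreted stress cytokine, fell with RANKL 3 d from 73.2 ± 11.4 to 6.85 ± 1.51 FPKM (-3.41, limma adjusted p = 6.99e-07), and *Sesn1*, the relative of *Sesn2*, fell with LPS 4 h from 23.7 ± 6.62 to 0.832 ± 0.244 FPKM (-4.67, adjusted p = 2.41e-07). The 17 genes listed as heat shock proteins of the cytosol belong to a response with a different stress sensor. The list also holds *Hspd1* and *Hspe1*, which encode mitochondrial chaperonins, and the transcription factor *Hsf1*. Of the 17, 2 rose and 0 fell with RANKL 3 d (0 and 1 after centring), and 2 rose and 4 fell with LPS 4 h (5 and 1 after centring). With LPS 3 d 3 rose and 1 fell (2 and 1 after centring, 5 and 2 without its replicate 3). *Hspa1a* (2.39) and *Hspa1b* (2.05) led the rises in LPS 3 d, and since these copies are near-identical, their split is uncertain.

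**Figure D5:**
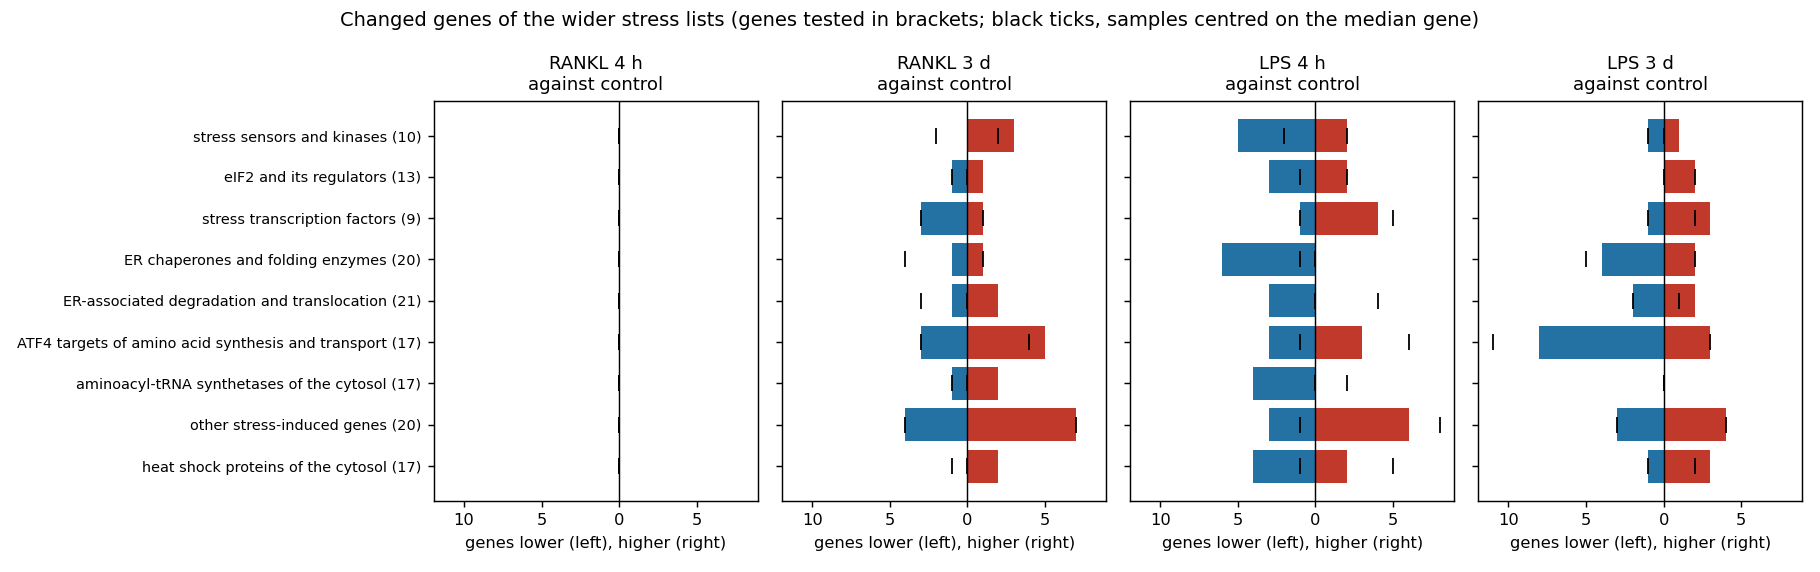
Number of genes of each list called higher (right of 0) and lower (left of 0) against control, in a panel for each stimulus and time, by the same rule as the 10 genes. RANKL 4 h has no bar in any list, and the longest lower bar in LPS 3 d is that of the amino acid genes, with 8 lower and 3 higher of 17.

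Patterns across the 15 samples were compared as the root mean square difference of centred log2 values over 9486 genes, as a description. Nearest to *Hspa5* were *Morf4l2* (0.139), *Msn* (0.148) and *Stip1* (0.152), all of them genes that varied little. Nearest to *Trib3* were *Cipc* (0.493), *Tmem104* (0.501) and *Cebpa* (0.511), at distances over 3 times those around *Hspa5*. *Cebpa*, a myeloid transcription factor, had mean levels of 76.9 FPKM in control, 168 in RANKL 4 h, 33.1 in RANKL 3 d, 10.9 in LPS 4 h and 102 in LPS 3 d, where *Trib3* had 6.17, 10.7, 2.22, 1.45 and 10.9.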

How the data were processed

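RNA was measured by RNA-seq in 15 BMDM samples, 3 in each of 5 groups taken from the labels. The authors deposited 1 table of FPKM values (fragments scaled to exon length and mapped reads), 1 per gene and sample, estimated with StringTie and Ballgown per their methods, which name edgeR for their own tests. The submitters' processing notes name GRCm38.p4 and mm10, and the aligner is not given in the sources used here. The last line, for *Ttk*, was incomplete and left out, and genes after it in alphabetical order, *Xbp1* among them, were not analysed here.

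Because FPKM are not counts, log2(FPKM + 0.1) was tested, for the 11743 genes whose mean reached 0.1 FPKM, with limma 3.58.1 in R 4.3.3 (lmFit on all 5 groups, eBayes with a trend), with Benjamini-Hochberg adjustment over all tested genes. The study's fold limits were kept, and its unadjusted p was an alternative. On values simulated for RANKL 3 d against control over 11743 genes, the fit called 74 of 100 genes changed by 1 on the log2 scale, 98 of 100 changed by 2, and 9 unchanged genes. The changed genes were drawn from those with a mean of at least 1 FPKM, and the noise was independent between samples. These rates therefore do not cover lower genes, samples that deviate together or a library that stands apart. Exact permutation tests of 3 against 3 cannot go below 0.1 and were not used for calls. Whole fragments were recovered for 14485 genes (100% of values within 0.01 of a whole number), so depth was known, but fragments of amplified libraries are not independent molecules.

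Same-numbered samples deviated together between control and RANKL 4 h (correlations of 0.71 to 0.84), control and LPS 4 h (0.44 to 0.62), and RANKL 4 h and LPS 4 h (0.55 to 0.69). In these, all 3 numbers correlated best with their own. Correlations were also over 0.1, but weaker, between control and RANKL 3 d (0.14 to 0.32) and between RANKL 4 h and RANKL 3 d (0.16 to 0.25). There only 2 of 3 numbers correlated best with their own. In the comparisons with LPS 3 d the correlations were not all over 0.1 (-0.23 to 0.18). The fit without a block was kept as the main fit. The alternative with replicate number as block spanned all 5 groups, the 3 d groups included. A paired fit of control with a 4 h group alone was not run.

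The 10 genes were always named. Of each pathway list, up to 2 called rises and 2 called falls of largest size against control could be named, and the 3 genes nearest to *Hspa5* and to *Trib3*. The members and lists were chosen with earlier results of these data known. Promoters came from RefSeq and positions from GENCODE M21, both GRCm38. Alternatives were the pseudocount (0.01 and 1), the filter (none, 1 FPKM), equal sums, centring on the median gene, fitting the compared groups alone, the replicate block, the trend, the threshold, limma voom, and leaving out each replicate. A replicate was left out only for the comparisons that include its group. Figures were drawn with matplotlib 3.10.9.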

Additional observations from a re-analysis of the deposited data

Results flagged for a closer look

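The direct test of RANKL against LPS at the same time passed for 11 values of the 10 stress genes, 5 at 4 h and 6 at 3 d. Of all tested genes, 50.0% passed at 4 h and 36.1% at 3 d, so differing between the stimuli is not particular to these genes. At 4 h the log2 differences, RANKL minus LPS, were 1.23 for *Ddit3*, 2.91 for *Trib3*, 1.79 for *Chac1*, 2.29 for *Sesn2* and -2.47 for *Ppp1r15a*. At 3 d they were 1.73 for *Herpud1*, -2.90 for *Ddit3*, -2.04 for *Trib3*, 1.63 for *Chac1*, 1.08 for *Asns* and -1.13 for *Ppp1r15a*. In each case every sample of the RANKL group lay on the same side of every sample of the LPS group, as in 68.2% of tested genes at 4 h and 51.5% at 3 d. *Ddit3* and *Trib3* took opposite signs at 4 h and 3 d, and the change of sign was not itself tested. The value of *Ddit3* at 4 h was not called after centring on the median gene (0.67), and the cause was not tested.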

How the results depend on the processing

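Counts of the 10 genes called stayed within 1.5 times under each of the 12 alternatives other than leaving out a library. Leaving out 1 library at a time gave 1 to 3 genes for RANKL 3 d against control (1 without RANKL 3 d replicate 3) and 2 to 6 for LPS 3 d against control (3 without control replicate 1, 2 without control replicate 2, 3 without LPS 3 d replicate 1), with fewer samples in each such fit; the other comparisons ranged from 0 to 0 for RANKL 4 h, 4 to 5 for LPS 4 h, 5 to 6 for RANKL 4 h against LPS 4 h, 4 to 8 for RANKL 3 d against LPS 3 d, 3 to 4 for RANKL 3 d against RANKL 4 h and 6 to 8 for LPS 3 d against LPS 4 h. Among the fits with a library left out, shares of all tested genes are given only for those without LPS 3 d replicate 3. No called value of the 10 genes changed sign under any alternative run, while 38 values that were not called did. Of 960 values under the other alternatives 7 lost and 16 gained a call, and of 480 values with a library left out 28 lost and 7 gained one. Besides the cases named in the report, *Trib3* in RANKL 3 d was lost with limma voom (adjusted p = 0.0612) and without control replicate 2 or RANKL 3 d replicate 2 or 3 (0.0767 to 0.104), *Asns* in LPS 3 d with equal sums (0.0507), *Asns* between the stimuli at 3 d in a fit of these groups alone (0.0559), *Ddit3* in LPS 4 h without LPS 4 h replicate 2 (0.0538), *Herpud1* in RANKL 3 d without control replicate 1 or RANKL 3 d replicate 3 (0.0587 and 0.0557), and *Herpud1* between the LPS times without LPS 3 d replicate 2 (log2 -0.58). In LPS 3 d against control, *Ddit3* was lost without any control replicate or LPS 3 d replicate 1 or 2 (0.0515 to 0.115), *Ppp1r15a* without control replicate 1 or 2 or LPS 3 d replicate 1 or 2 (0.0536 to 0.109), *Asns* without control replicate 2 or 3 or LPS 3 d replicate 1 or 3 (0.0589 to 0.142) and *Chac1* without control replicate 1 or 2 or LPS 3 d replicate 3 (0.0568 to 0.0835). In limma fits of the compared groups alone, *Atf4* was called lower in RANKL 3 d than in control (adjusted p = 0.0132) and than in RANKL 4 h (0.00978). In such a fit it was also called higher in RANKL 4 h than in LPS 4 h (0.00745). The causes of these losses and gains were not tested. With replicate number as block, 0 of the 80 values for the 10 genes changed call (*Herpud1* in RANKL 3 d, adjusted p = 0.0113, and *Trib3* 0.0362). Depth limits *Chac1*, at 15 to 28 fragments per LPS 4 h sample and 14 to 44 per LPS 3 d sample.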
